A study of Mus musculus with 12 samples.

Results

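Replication-dependent histone genes encode the core histones H2A, H2B, H3 and H4 and the linker histone H1 that package newly made DNA. Most of them lie in a few tight clusters, carry no introns and are transcribed mainly in S phase, when NPAT and class-specific promoter factors act on the clusters together. Their messenger RNAs end in a stem-loop bound by SLBP rather than in a poly(A) tail, are cut by a machinery built around the U7 snRNP, and are degraded quickly once DNA synthesis stops. In a resting T cell little of this RNA is made, and a dividing T cell needs it for each round of replication.

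The genes were followed on 12 Affymetrix whole-transcript arrays of mouse CD8+CD28low regulatory T cells, a small CD8 T cell population with suppressive activity. Activated KO and activated WT cells had spent 96 h in culture with anti-CD3 antibody and allogenic APC (antigen-presenting cells), and native KO and native WT cells were freshly isolated. KO stands for the genotype labelled AIRE ko, the loss of the thymic regulator Aire, and both genotypes are C57Bl/6. Each of the 4 groups holds 3 arrays called biological replicates, and since the number of mice behind an array is not given, p-values measure the spread between arrays. Each experiment number is shared by a KO and a WT array of the same state, and no activated array shares a number with a native array.

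A row of the deposited table is 1 transcript cluster with its log2 expression level. Member rows were chosen by gene names beginning Hist1h, Hist2h, Hist3h or Hist4h. The platform table gives current symbols, H1f5 for Hist1h1b for example, and 0 rows matched these older names literally. The older names were therefore looked up in the RefSeq gene table of GRCm38.p6, where 70 genes carry one, 56 of them on chromosome 13, 10 on chromosome 3, 3 on chromosome 11 and 1 on chromosome 6. Matching by Entrez identifier gave 58 of the 35556 rows, which carry 69 of the 70 genes. Of these, 31 rows carry 1 symbol and 27 carry several, up to 20, because coding sequences of a class are nearly alike and share probes. The 58 rows hold 40 distinct sets of symbols, and 4 rows form pairs with identical values, so rows are not independent genes. Signal depends on a row's probes as well as on RNA, so no gene is ranked by its level, and the row of highest signal in a class is given only as an example.

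The arrays differed in spread. The interquartile range over all rows was 2.19 on activated KO array 3 and 2.45 on activated WT array 2, against 2.65 to 2.89 on the other 10 arrays. Background, taken on each array as the 95th percentile of the olfactory receptor rows, was 7.47 on activated KO array 3 and 6.87 on activated WT array 2 and lay between 6.12 and 6.52 elsewhere. Aire itself was below background on all 12 arrays, at 5.55 to 5.92, so its row does not check the genotype labels. Cd8a and Cd8b1 averaged 10.6 to 11.8 on the activated KO arrays, 11.4 to 11.9 on the activated WT arrays, 11.9 to 12.2 on the native KO arrays and 11.99 to 12.21 on the native WT arrays, and Cd4 and Cd40lg were at background in all 4 groups. Cd28 RNA was well above background in all 4 groups, and the CD28 protein, which the gate keeps low, was not measured. The RNA level was 9.98 to 11.25 on the activated KO arrays and 10.80 to 11.06 on the activated WT arrays. On the native KO arrays it was 11.03 to 11.97 and on the native WT arrays 11.21 to 11.94.

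Nearly the whole family was higher in activated than in native cells, in both genotypes. Stimulation, the 96 h of culture and the experiment number differ together between activated and native cells, so their parts cannot be told apart. In KO cells 52 of 58 rows were called higher in activated than in native cells, and 0 were called lower, at an adjusted p under 0.05 in limma. The same 52 rows were called higher in WT cells, with 0 lower. Across all rows, 7.16% were called higher and 14% lower in KO cells, and 7.75% higher and 13.9% lower in WT cells. The median difference of the 58 rows was 1.33 in KO cells and 1.41 in WT cells on the log2 scale, beside -0.01 and -0.04 for all rows. Groups did not overlap, with all 3 activated arrays above all 3 native arrays, for 55 of 58 rows in KO cells and 53 of 58 in WT cells. Of all rows, 12.1% were separate upward and 20.8% downward in KO cells, and 14.9% upward and 26.1% downward in WT cells. In RNA from a whole population, fewer cells of a type and less RNA per cell cannot be told apart.

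H1f5 (Hist1h1b), which encodes a linker histone, was the member with the highest rise in KO cells. Its levels were 11.80, 11.40 and 11.81 on the activated KO arrays, 11.80, 11.47 and 11.73 on the activated WT arrays, 8.52, 8.29 and 9.07 on the native KO arrays and 8.30, 8.34 and 8.58 on the native WT arrays. All 6 activated arrays lay well above all 6 native arrays. The log2 difference was 3.04 ± 0.20 in KO cells, or 8.25-fold, and 3.26 ± 0.20 in WT cells, or 9.59-fold (SE, n = 3 arrays a group; limma adjusted p = 3.98e-06 and 2.09e-06).

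H4c6 (Hist1h4f), 1 of the many genes for the same H4 protein, was the member with the highest rise in WT cells. It had 11.17, 11.23 and 11.10 on the activated KO arrays, 11.28, 11.31 and 11.46 on the activated WT arrays, 8.64, 8.34 and 8.58 on the native KO arrays and 8.29, 7.44 and 8.39 on the native WT arrays. Native WT array 2 was the lowest of the 12. The log2 difference was 2.65 ± 0.21 in KO cells and 3.31 ± 0.21 in WT cells, 6.28-fold and 9.89-fold (limma adjusted p = 1.5e-05 and 2.57e-06).

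H2ac4 (Hist1h2ab), an H2A gene, and H2bc3 (Hist1h2bb), an H2B gene, lie next to each other in the RefSeq gene order. H2ac4 was measured at 10.79, 10.81 and 10.68 on the activated KO arrays, 10.91, 10.66 and 11.01 on the activated WT arrays, 7.98, 7.65 and 8.56 on the native KO arrays and 7.65, 7.75 and 7.83 on the native WT arrays. It rose by 2.70 ± 0.19 in KO cells and 3.11 ± 0.19 in WT cells (limma adjusted p = 7.99e-06 and 2.4e-06). H2bc3 stood at 11.71, 12.01 and 12.19 on the activated KO arrays, 11.72, 11.95 and 11.91 on the activated WT arrays, 9.19, 8.86 and 9.48 on the native KO arrays and 8.996, 9.18 and 9.003 on the native WT arrays. Its rise was 2.79 ± 0.17 in KO cells and 2.80 ± 0.17 in WT cells (limma adjusted p = 2.69e-06 and 2.01e-06). For both genes the activated and native arrays were fully separate.

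**Figure D1:**
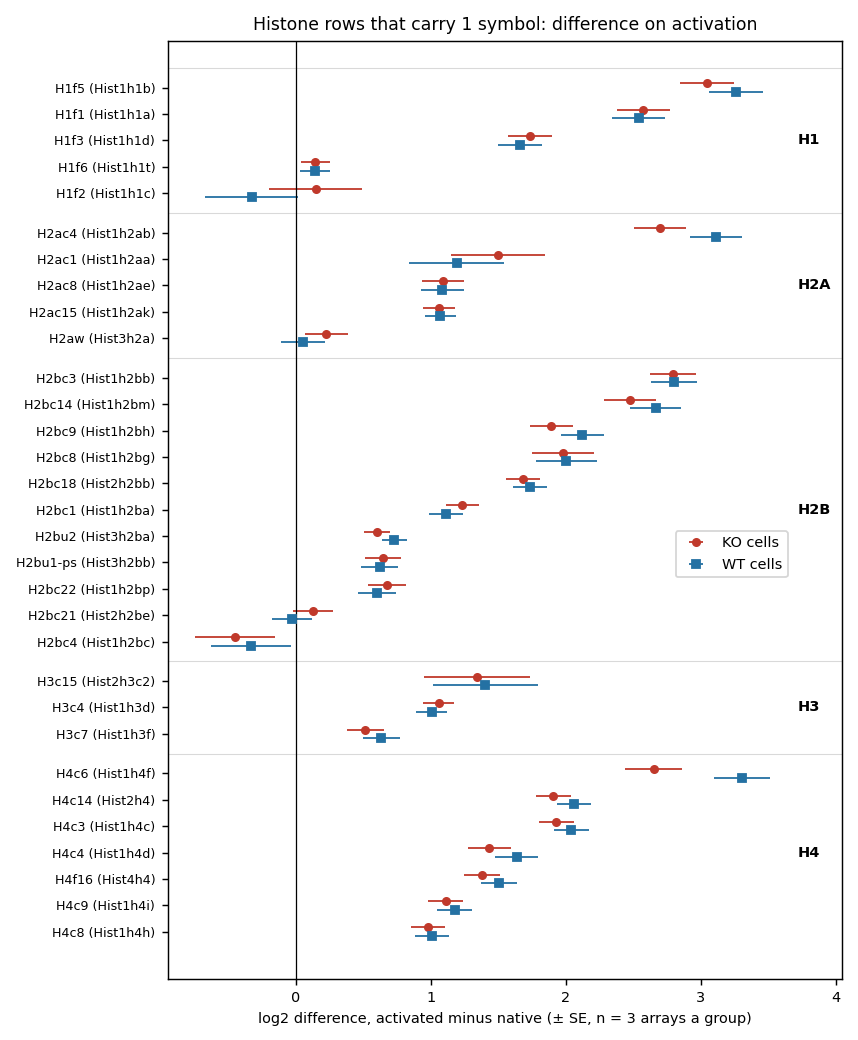
Log2 difference between activated and native cells (x axis, ± SE, n = 3 arrays a group) for the 31 histone rows that carry 1 symbol, by class, in KO cells (circles) and WT cells (squares). The differences run up to 3.04 in KO cells and 3.31 in WT cells, while H1f2, H1f6, H2aw, H2bc21 and H2bc4, which were not called, lie between -0.45 and 0.22.

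The rise ran through every class. Of the 5 linker histone rows, 3 were called higher in each genotype, with a class median of 1.73 in KO cells and 1.66 in WT cells. Beside H1f5 these were H1f1 (Hist1h1a), with 2.58 ± 0.20 in KO cells and 2.54 ± 0.20 in WT cells, and H1f3 (Hist1h1d). H1f3 read 8.42, 8.14 and 8.45 on the activated KO arrays, 8.42, 7.95 and 8.01 on the activated WT arrays, 6.67, 6.38 and 6.76 on the native KO arrays and 6.27, 6.51 and 6.62 on the native WT arrays, a difference of 1.73 ± 0.16 in KO cells and 1.66 ± 0.16 in WT cells. A further row that H1f4 (Hist1h1e) shares with H2bc6 rose by 1.83 ± 0.19 in KO cells and 1.80 ± 0.19 in WT cells.

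Of the 8 H2A rows, 6 were called higher in each genotype (median 1.11 in KO cells and 1.14 in WT cells), and of the 18 H2B rows, 16 (1.32 and 1.42). H2bc14 (Hist1h2bm) rose by 2.47 ± 0.19 in KO cells and 2.67 ± 0.19 in WT cells, and H2bc22 (Hist1h2bp) by 0.67 ± 0.14 and 0.60 ± 0.14, so the measured rises of the class differed widely in size. H2bc22 lay nearer background than H2bc14, at 6.63 to 7.19 on the native KO arrays and 7.02 to 7.06 on the native WT arrays. RMA compresses differences near background, and the part of this in the smaller rise was not tested.

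Of the 13 H3 rows, all 13 were called higher in each genotype (median 1.20 in KO cells and 1.36 in WT cells). Only 3 of them carry 1 symbol. H3c4 (Hist1h3d) rose by 1.06 ± 0.11 in KO cells and 1.01 ± 0.11 in WT cells. H3c15 (Hist2h3c2) was at background in both native groups, and its rise was at least 0.47 in KO cells and at least 0.55 in WT cells on the log2 scale, measured from the background level (limma adjusted p = 0.0314 and 0.0253). H3c7 (Hist1h3f) passed the test in both genotypes too, but was at background in activated KO cells and both native groups, and no size is given for it. H3c15 lost its call in KO cells without any 1 of the comparison's arrays other than activated KO array 3 (limma adjusted p = 0.0525 to 0.109). In WT cells it lost the call without any 1 array other than activated WT array 2 or native WT array 2 (0.0657 to 0.104). H3c7 lost its call in KO cells without native KO array 1 or 2 (0.0812 and 0.0753).

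Of the 13 H4 rows, all 13 were called higher in each genotype (median 1.43 in KO cells and 1.67 in WT cells). H4c4 (Hist1h4d), the H4 example by signal, read 13.22, 13.21 and 13.52 on the activated KO arrays, 13.24, 13.42 and 13.28 on the activated WT arrays, 11.999, 11.53 and 12.13 on the native KO arrays and 11.79, 11.53 and 11.71 on the native WT arrays. It rose by 1.43 ± 0.16 in KO cells and 1.64 ± 0.16 in WT cells. H4c3 (Hist1h4c) had 9.55, 9.73 and 9.77 on the activated KO arrays, 9.76, 9.65 and 10.04 on the activated WT arrays, 7.77, 7.64 and 7.85 on the native KO arrays and 7.71, 7.68 and 7.94 on the native WT arrays, a rise of 1.93 ± 0.13 in KO cells and 2.04 ± 0.13 in WT cells. Neither gene's activated arrays overlapped its native arrays. H4c14 (Hist2h4), of the chromosome 3 cluster, rose by 1.91 ± 0.13 in KO cells and 2.06 ± 0.13 in WT cells, close to H4c3 of chromosome 13.

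Rows that share many symbols rose by similar amounts within a class. The 10 H3 rows that carry the set H3c1, H3c13, H3c11, H3c10, H3c6, H3c2, H3c4, H3c3, H3c7, H3c8, H3c15 and H3c14 rose by 1.08 to 1.33 in KO cells and 1.24 to 1.497 in WT cells. One of them, the H3 example by signal, had 13.43, 13.34 and 13.77 on the activated KO arrays, 13.41, 13.60 and 13.49 on the activated WT arrays, 12.35, 12.14 and 12.68 on the native KO arrays and 12.14, 12.28 and 12.25 on the native WT arrays. The 5 H4 rows with the set H4c17, H4c2, H4c1, H4c18, H4c12, H4c11, H4c9, H4c6, H4c4, H4c3 and H4c8 rose by 1.33 to 1.48 in KO cells and 1.56 to 1.74 in WT cells.

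The H2B example by signal carries H4bc24, H2bc23, H2bc22, H2bc15, H2bc14, H2bc13, H2bc12, H2bc11, H2bc9, H2bc8, H2bc7, H2bc6, H2bc3 and H2bc4. It read 12.96, 12.92 and 13.38 on the activated KO arrays, 12.94, 13.21 and 13.06 on the activated WT arrays, 11.80, 11.43 and 12.15 on the native KO arrays and 11.67, 11.71 and 11.70 on the native WT arrays, and rose by 1.29 ± 0.18 in KO cells and 1.38 ± 0.18 in WT cells. The H2A example by signal carries 20 symbols: H2af-ps2, H2ac23, H2ac21, H2ac19, H2ac13, H2ac20, H2ac10, H2ac4, H2ac24, H2ac22, H2ac15, H2ac12, H2ac11, H2ac8, H2ac7, H2ac6, H2aj, H2ax, H2ac18 and H3c4. Among them H2aj and H2ax carry no Hist1h to Hist4h name, and H3c4 is an H3 gene. The row was classed as H2A by its other histone symbols. Its values were 12.82, 12.64 and 13.14 on the activated KO arrays, 12.89, 13.05 and 12.84 on the activated WT arrays, 11.67, 11.57 and 11.95 on the native KO arrays and 11.51, 11.67 and 11.70 on the native WT arrays, a rise of 1.13 ± 0.15 in KO cells and 1.30 ± 0.15 in WT cells.

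Rows with several symbols had a median of 1.33 in KO cells and 1.46 in WT cells, against 1.34 and 1.19 for rows with 1 symbol. The rows with several symbols spanned less, 0.31 to 1.87 in KO cells and 0.26 to 1.85 in WT cells, against -0.45 to 3.04 and -0.33 to 3.31 for rows with 1 symbol.

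In each genotype 6 of 58 rows were not called, the same 6, and all but H1f6 were above background. H1f2 (Hist1h1c), a linker histone gene, had 10.82, 9.86 and 10.47 on the activated KO arrays, 10.48, 9.27 and 10.17 on the activated WT arrays, 9.83, 10.37 and 10.51 on the native KO arrays and 9.90, 10.29 and 10.71 on the native WT arrays. The groups overlapped throughout, and the difference was 0.15 ± 0.35 in KO cells and -0.33 ± 0.35 in WT cells (limma adjusted p = 0.832 and 0.605). H1f2 sits a few genes from H2bc3 and H2ac4 in the same cluster, with H3c3 and H2ac5-ps between.

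H2bc4 (Hist1h2bc) read 7.80, 7.07 and 6.55 on the activated KO arrays, 7.39, 6.56 and 7.35 on the activated WT arrays, 7.43, 7.62 and 7.74 on the native KO arrays and 7.37, 7.31 and 7.63 on the native WT arrays. It was the member with the lowest difference, -0.45 ± 0.30 in KO cells and -0.33 ± 0.30 in WT cells, and the change did not pass the test (limma adjusted p = 0.353 and 0.523). Its 3 activated KO arrays spread over more than 1 log2 unit, lowest on array 3. On that array and on activated WT array 2 it was under the background of 7.47 and 6.87. H2bc21 (Hist2h2be), of the chromosome 3 cluster and next to H3c15, stood at 6.54, 6.57 and 6.64 on the activated KO arrays, 6.57, 6.71 and 6.35 on the activated WT arrays, 6.49, 6.38 and 6.51 on the native KO arrays and 6.74, 6.24 and 6.75 on the native WT arrays. All 4 groups overlapped, with differences of 0.13 ± 0.15 in KO cells and -0.03 ± 0.15 in WT cells. On activated KO array 3, activated WT array 2, native KO array 2 and native WT array 2 H2bc21 was under background. H2bc21 and H2bc4 are among the family members known to give polyadenylated transcripts in differentiated cells as well, which was not measured here.

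The small Hist3h group on chromosome 11 was mixed. H2bu2 (Hist3h2ba), an H2B gene, had 7.36, 7.43 and 7.38 on the activated KO arrays, 7.48, 7.47 and 7.53 on the activated WT arrays, 6.83, 6.67 and 6.86 on the native KO arrays and 6.80, 6.83 and 6.67 on the native WT arrays, and rose by 0.60 ± 0.09 in KO cells and 0.73 ± 0.09 in WT cells (limma adjusted p = 0.00118 and 0.000307). H2bu1-ps (Hist3h2bb), annotated as a transcribed pseudogene, read 7.33, 7.62 and 7.35 on the activated KO arrays, 7.61, 7.43 and 7.58 on the activated WT arrays, 6.65, 6.66 and 7.07 on the native KO arrays and 6.87, 6.86 and 7.02 on the native WT arrays, a rise of 0.65 ± 0.14 in KO cells and 0.62 ± 0.14 in WT cells. Both rises are small for the family, yet no activated array overlapped a native one. On activated KO array 3 both rows were under that array's raised background of 7.47.

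H2aw (Hist3h2a), an H2A gene 2 places along from H2bu1-ps, was not called. Its levels were 10.23, 10.04 and 10.29 on the activated KO arrays, 10.22, 9.99 and 9.72 on the activated WT arrays, 9.77, 9.97 and 10.15 on the native KO arrays and 9.69, 10.06 and 10.03 on the native WT arrays, which overlap, and its difference was 0.22 ± 0.16 in KO cells and 0.05 ± 0.16 in WT cells (limma adjusted p = 0.402 and 0.883). A second row that H2aw shares with its neighbour Trim17 had 8.52, 8.42 and 8.72 on the activated KO arrays, 8.47, 8.53 and 8.38 on the activated WT arrays, 8.13, 8.19 and 8.40 on the native KO arrays and 8.04, 8.26 and 8.29 on the native WT arrays. That row's difference was 0.31 ± 0.12 in KO cells and 0.26 ± 0.12 in WT cells (adjusted p = 0.0974 and 0.169), also not called. H4f16 (Hist4h4), alone on chromosome 6 and thus outside the clusters, read 8.99, 8.83 and 9.15 on the activated KO arrays, 8.96, 8.91 and 9.21 on the activated WT arrays, 7.58, 7.54 and 7.70 on the native KO arrays and 7.56, 7.33 and 7.69 on the native WT arrays, with no overlap. It rose by 1.38 ± 0.13 in KO cells and 1.503 ± 0.13 in WT cells, within the range of the clustered H4 genes.

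Of the 3 histones known from the male germ line, the linker gene H1f6 (Hist1h1t) was at background in all 4 groups. Its values were 5.41, 5.46 and 5.66 on the activated KO arrays, 5.31, 5.57 and 5.500 on the activated WT arrays, 5.34, 5.35 and 5.40 on the native KO arrays and 5.35, 5.39 and 5.21 on the native WT arrays. H2bc1 (Hist1h2ba) had 8.15, 8.04 and 8.43 on the activated KO arrays, 8.09, 8.01 and 8.23 on the activated WT arrays, 6.87, 6.92 and 7.12 on the native KO arrays and 6.99, 7.06 and 6.93 on the native WT arrays, and rose by 1.23 ± 0.12 in KO cells and 1.11 ± 0.12 in WT cells. Its neighbour H2ac1 (Hist1h2aa) had 8.80, 8.05 and 9.82 on the activated KO arrays, 9.01, 8.33 and 8.501 on the activated WT arrays, 7.23, 7.42 and 7.54 on the native KO arrays and 7.42, 7.33 and 7.53 on the native WT arrays, with its highest value on activated KO array 3.

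H2ac1 rose by 1.497 ± 0.35 in KO cells and 1.19 ± 0.35 in WT cells (limma adjusted p = 0.011 and 0.0323). In WT cells its call did not survive leaving out any array of the comparison other than activated WT array 2 (adjusted p = 0.0623 to 0.12). Rows with 1 symbol may still bind messages of near-identical genes, which matters most for these germ-line members and was not tested.

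**Figure D2:**
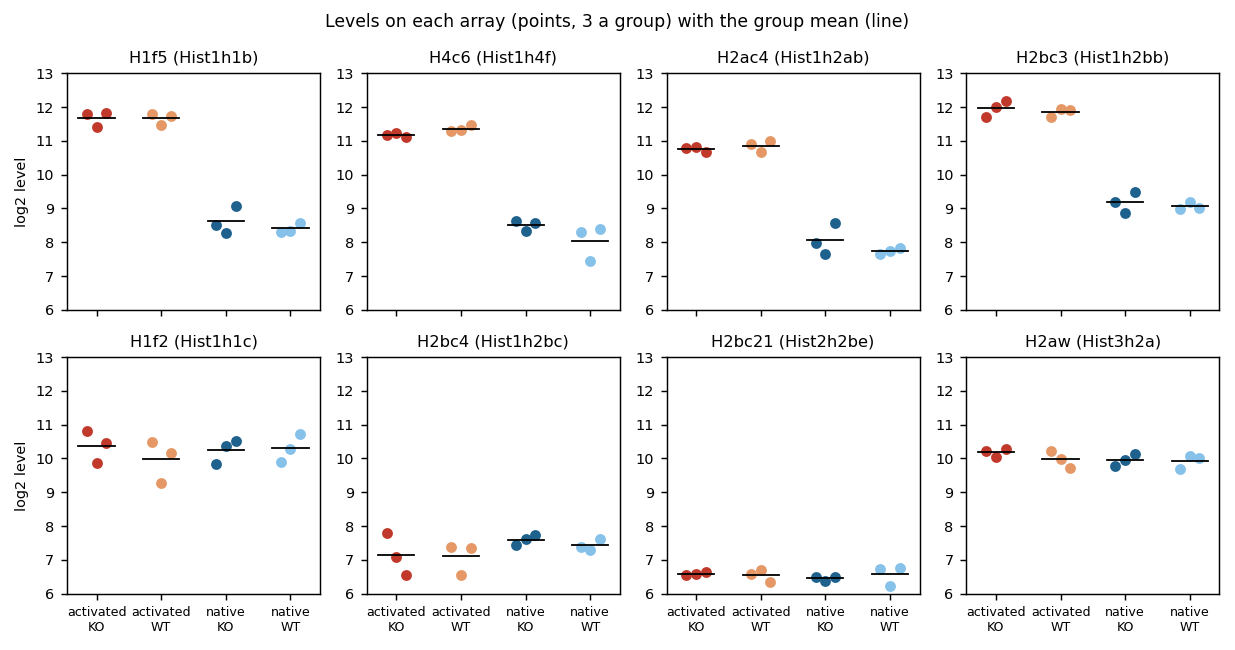
Log2 level on each of the 12 arrays (points) with group means (lines) for 4 members with large rises (top) and 4 members that were not called (bottom), in activated KO, activated WT, native KO and native WT cells. In the top row every activated array lies above every native array, while in the bottom row activated and native arrays overlap.

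Promoters are shown for the members with the largest rises and for H1f2, which was not called, all on chromosome 13. The sequences are the 250 bases before the annotated start, from RefSeq on GRCm38.p6, 5′ to 3′ on the gene's strand. Capitals mark matches on either strand. The motifs searched were the H1 box AAACACA, the octamer ATTTGCAT bound by POU factors, and CCAAT. They also included TATAAA and its other form TATATA, both TATA boxes whose matches may overlap. The last was GGTCCG, from the element of H4 promoters. H1f5 lies at chr13:21780626-21780875 (minus strand), H1f2 at chr13:23738557-23738806 (plus), H2bc3 at chr13:23746484-23746733 (plus), H2ac4 at chr13:23750838-23751087 (plus) and H4c6 at chr13:23551669-23551918 (minus).
H1f5: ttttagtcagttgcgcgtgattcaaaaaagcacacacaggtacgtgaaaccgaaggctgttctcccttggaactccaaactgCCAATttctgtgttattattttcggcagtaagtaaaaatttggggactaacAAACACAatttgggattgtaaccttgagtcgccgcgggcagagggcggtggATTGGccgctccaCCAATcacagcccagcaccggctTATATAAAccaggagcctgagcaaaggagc
H1f2: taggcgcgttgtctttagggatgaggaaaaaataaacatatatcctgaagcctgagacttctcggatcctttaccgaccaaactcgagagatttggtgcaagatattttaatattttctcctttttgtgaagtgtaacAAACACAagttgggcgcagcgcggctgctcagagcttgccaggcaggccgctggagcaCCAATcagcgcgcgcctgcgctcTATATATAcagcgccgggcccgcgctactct
H2bc3: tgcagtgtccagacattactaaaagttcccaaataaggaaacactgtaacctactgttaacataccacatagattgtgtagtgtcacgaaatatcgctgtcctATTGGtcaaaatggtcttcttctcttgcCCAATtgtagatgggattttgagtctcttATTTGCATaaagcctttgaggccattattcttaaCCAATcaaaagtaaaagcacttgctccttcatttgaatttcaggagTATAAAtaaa
H2ac4: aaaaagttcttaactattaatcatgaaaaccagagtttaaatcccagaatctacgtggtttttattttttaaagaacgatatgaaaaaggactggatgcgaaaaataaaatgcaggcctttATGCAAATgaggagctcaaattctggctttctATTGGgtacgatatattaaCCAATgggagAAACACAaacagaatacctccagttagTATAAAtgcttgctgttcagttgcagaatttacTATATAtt
H4c6: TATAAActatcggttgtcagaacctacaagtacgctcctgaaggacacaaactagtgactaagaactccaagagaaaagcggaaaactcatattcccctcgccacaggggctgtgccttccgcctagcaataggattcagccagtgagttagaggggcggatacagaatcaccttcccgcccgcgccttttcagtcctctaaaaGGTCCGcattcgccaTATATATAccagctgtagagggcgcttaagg

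H1f5, with the highest H1 rise, and H1f2, which was not called, share an H1 box, a CCAAT box and a TATATA stretch. The H1 box starts 117 bases before the start in H1f5 and 112 in H1f2, a CCAAT box starts 53 and 54 bases before it, and a TATATA stretch 30 and 31 bases before it. They differ in that H1f5 holds 3 CCAAT matches and 1 TATAAA match, while H1f2 holds 1 and 0. H2bc3 and H2ac4 each hold an octamer, read on opposite strands, and H4c6 holds GGTCCG from 46 bases before its start.

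In the promoter table, 62 of the 70 genes had an entry, 63 entries in all. The H1 box was in 5 of 6 H1 promoters (83.3%) and in 6.25% of all 32851 promoters of the same length. The octamer was in 7 of 18 H2A promoters (38.9%) and 7 of 17 H2B promoters (41.2%), against 1.6% of all promoters. GGTCCG was in 9 of 12 H4 promoters (75%) and in 6.72% of all promoters. CCAAT was in 52 of the 63 histone entries (82.5%) and in 33.8% of all, but in 3 of 12 H4 promoters. TATAAA was in 46% of the histone entries and 12.4% of all, and TATATA in 25.4% and 5.25%.

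The matches differed between classes, and within a class members with a match spanned a wide range of responses. The 5 H2B rows with an octamer rose by 1.11 to 2.80 in WT cells, against 0.60 to 2.12 for the 3 H2B rows with a promoter entry and no octamer. The 4 H1 rows with an H1 box ran from -0.33 to 3.26 in WT cells, and H1f1, with no match, was at 2.54. These are matches of letters and no test was made on them.

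Other genes of histone supply, taken from lists, moved in part with the family. Beside the counts for these lists and the cell markers below, 7.16% of all rows were called higher and 14% lower in KO cells. In WT cells the shares were 7.75% and 13.9%. Of 31 S phase replication genes, 28 were called higher in each genotype and 0 lower, with a median of 1.32 in KO cells and 1.55 in WT cells, close to the histone medians. The largest WT differences were for Tk1, thymidine kinase, with 3.16 in KO cells and 3.41 in WT cells, Rrm2, a ribonucleotide reductase subunit, with 3.12 and 3.34, Uhrf1, a maintenance methylation factor, with 2.49 and 2.88, and Pole, a replicative polymerase, with 2.39 and 2.504. All 13 proliferation markers were called higher in each genotype, with a median of 3.02 in KO cells and 3.53 in WT cells.

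Among 12 genes of histone gene transcription, 7 were called higher in each genotype and 0 lower (median 1.37 in KO cells and 1.54 in WT cells). These included Ccna2, cyclin A2, with 3.27 in KO cells and 3.56 in WT cells, E2f3 with 2.25 and 2.33, Ccne1, cyclin E1, with 1.84 and 1.92, and E2f1 with 1.49 and 1.77. Without activated WT array 2, 1 was called lower in KO cells. The list mixes cell cycle regulators with dedicated histone factors. The genes named here, chosen by the largest WT differences, are all cell cycle regulators, and Ccna2 is also among the proliferation markers.

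Of 22 genes for processing and decay of histone messages, 3 were called higher and 0 lower in KO cells and 4 higher and 1 lower in WT cells, with medians of 0.17 and 0.25. Lsm10, a U7 snRNP subunit, rose by 1.23 in KO cells and 1.21 in WT cells. Slbp, the stem-loop binding protein, rose by 0.72 and 0.79, and Zfp473, a zinc finger protein of the processing machinery, by 0.72 and 0.73. The WT call of Lsm10 was lost without activated WT array 3 (limma adjusted p = 0.0501). Snrpb, an Sm protein, rose by 0.499 in WT cells and was not called in KO cells, at 0.25. Its WT call was lost without native WT array 1 or 2 or activated WT array 1 or 3 (adjusted p = 0.0698 to 0.0909). Without activated WT array 2 the list had 8 called higher in WT cells, and 5 higher and 1 lower in KO cells, and without activated WT array 3 it had 2 higher in WT cells. The count called lower moved by 1 without activated KO array 2 in KO cells and without activated KO array 3 or native WT array 2 in WT cells. The KO median was 0.04 without activated KO array 1 and 0.26 without activated KO array 3.

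Of 21 histone chaperones and related factors, 6 were called higher and 2 lower in KO cells, and 5 higher and 2 lower in WT cells, with medians of 0.23 and 0.34. Asf1b, a chaperone of H3 and H4, rose by 2.30 in KO cells and 2.43 in WT cells. Chaf1a and Chaf1b, subunits of the CAF-1 complex that loads H3 and H4 at replication forks, rose by 1.88 and 1.47 in KO cells and by 2.07 and 1.44 in WT cells. Mms22l, which binds new H4 with Tonsl, rose by 1.30 and 1.41. Without activated WT array 2 the list had 10 called higher in WT cells, and without activated KO array 3 it had 8. The count called lower was 1 in WT cells without activated WT array 3 or native WT array 2, and 1 in KO cells without native KO array 2. The KO median was 0.13 without activated KO array 1, and the WT median was 0.20 without activated WT array 3.

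Most genes on a list of histone variants, named for replication-independent and linker variants, were not called. Of 13 rows, 2 were called higher in KO cells and 3 in WT cells, 0 were called lower, and the medians were 0.10 and 0.16. In each group 5 or 6 of the 13 rows were at background. Without activated KO array 3, 4 were called higher in KO cells and 5 in WT cells, with a KO median of 0.25. The KO median was 0.04 without activated KO array 2, 0.02 without native KO array 1 and 0.16 without native KO array 3, and the WT median was 0.09 without activated WT array 2. Cenpa, the centromeric H3, rose by 2.04 in KO cells and 2.08 in WT cells, and H2ax, whose product is phosphorylated at DNA breaks, by 1.74 and 1.74. H2az1, the gene for H2A.Z, rose by 0.69 in WT cells and did not pass in KO cells, at 0.35 (limma adjusted p = 0.0689), although without activated KO array 3 it was called there, at 0.43 (adjusted p = 0.0252).

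Markers of other cells were set beside the rise, since the cultures held antigen-presenting cells. Of 14 macrophage and dendritic cell markers, 12 were at background in activated KO and 13 in activated WT cells, against 10 in native KO and 11 in native WT cells. Of 6 B cell markers, 4 were at background in both activated groups, against 3 in native KO and 4 in native WT cells. The 6 MHC class II rows averaged 6.18 to 6.93 on the activated KO arrays and 6.76 to 6.87 on the activated WT arrays, against 6.61 to 7.67 on the native KO arrays and 6.30 to 6.85 on the native WT arrays. H2-Ab1, an MHC class II chain, rose by 3.33 ± 0.87 in WT cells and differed by 1.27 ± 0.87 in KO cells, where it was not called. Its call rests on single arrays. Without activated KO array 3 the KO difference was 2.45 and was called (limma adjusted p = 0.0133), and the WT call was lost without native WT array 1 or 3 or activated WT array 3 (adjusted p = 0.0587 to 0.0669). Of the 6 MHC class II rows, 0 were called higher and 3 lower in KO cells, and 1 higher and 0 lower in WT cells. The part of other cells in the histone rise was not tested.

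In freshly isolated cells no difference between the genotypes passed the test. Between native KO and native WT cells 0 of 58 rows were called higher and 0 lower in limma, and 1 had an unadjusted p under 0.05, as 1.19% of all rows did. Across all rows 0.00562% were called higher and 0% lower. The median difference of the members was 0.10 on the log2 scale, 44 of 58 being above 0, beside -0.02 for all rows. Class medians were 0.21 for H4, 0.17 for H3, 0.08 for H2B, 0.06 for H2A and 0.05 for H1 rows. Repeated rows of 1 symbol set enter these values, 10 of the 13 H3 rows among them. Over rows with 1 symbol the medians were 0.10 for H4, 0.02 for H3, 0.02 for H2B, 0.04 for H2A and 0.05 for H1, and 0.04 over all 31, of which 19 were above 0. With rows of 1 symbol set averaged, the median was 0.06 over 40 sets.

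The row with the lowest unadjusted p was H4c6, whose values are given above, with a difference of 0.48 ± 0.21 between native KO and native WT cells (limma unadjusted p = 0.0456, adjusted p = 1). Without native WT array 2, its lowest value, the difference was 0.18. The next was an H4 row with the 11 symbols listed before, at 12.57, 12.48 and 12.90 on the activated KO arrays, 12.58, 12.77 and 12.69 on the activated WT arrays, 11.40, 11.04 and 11.49 on the native KO arrays and 11.14, 10.78 and 11.12 on the native WT arrays. Its native KO and WT arrays overlap, and the difference was 0.29 ± 0.16. Below 0 the lowest p-values were those of H2bu1-ps at -0.13 ± 0.14 and H2bc21 at -0.12 ± 0.15, both within the spread of the arrays.

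One native KO array stood higher than the others. Relative to the native WT means, the median histone row stood at 0.10, -0.08 and 0.31 on native KO arrays 1, 2 and 3, and at -0.03, -0.01 and 0.05 on native WT arrays 1, 2 and 3. Of the 58 rows, 46 had their highest native value on native KO array 3, where 20% of all rows did. Without that array the median difference was -0.005 (28 rows above 0 and 30 below), and without native KO array 2 it was 0.24.

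Other lists varied between the native arrays too, and the neutrophil, NK cell and MHC class II lists were highest on native KO array 1. Relative to native WT means, the median proliferation marker was at 0.21, -0.07 and 0.49 on native KO arrays 1, 2 and 3, and at 0.12, 0.03 and -0.13 on native WT arrays 1, 2 and 3, the same order of native KO arrays as the histones. The 12 neutrophil markers were at 2.22, -0.19 and 1.83 on native KO arrays and at 0.65, -0.19 and -0.48 on native WT arrays. The 6 NK cell markers were at 1.21, 0.17 and 0.53 on native KO arrays and at 0.41, -0.20 and -0.16 on native WT arrays. The 6 MHC class II rows were at 1.34, -0.002 and 0.67 on native KO arrays and at -0.02, 0.31 and -0.25 on native WT arrays. None of the proliferation, neutrophil, NK cell or MHC class II markers was called between the native groups. Of the 12 neutrophil rows, 0 were at background in native KO and 2 in native WT cells, against 10 in activated KO and 11 in activated WT cells. The part of these cells in the histone shift was not tested.

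All 3 native KO arrays lay above all 3 native WT arrays for 1 member, a row shared by H4c17 and H4c11, named after its values were seen. It had 8.58, 8.47 and 9.03 on the activated KO arrays, 8.70, 8.22 and 8.76 on the activated WT arrays, 6.80, 6.86 and 6.81 on the native KO arrays and 6.71, 6.64 and 6.77 on the native WT arrays, a native difference of 0.12 ± 0.17. No member had all native KO arrays below. Of all rows, 2.24% were separate upward and 4.56% downward.

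Activated KO and activated WT cells did not differ past the threshold in any member. Again 0 of 58 rows were called higher and 0 lower in limma, and 0 had an unadjusted p under 0.05, as 0.973% of all rows did, with 0% of all rows called in either direction. The median member difference was 0.01, with 37 rows above 0 and 21 below, beside -0.001 for all rows. The lowest p-values above 0 were those of H2aw, with 0.21 ± 0.16, and H1f3, with 0.21 ± 0.16, and below 0 those of H2bu2, with -0.11 ± 0.09, and H4c3, with -0.14 ± 0.13. H1f2 had the widest difference, 0.41 ± 0.35, with an error nearly as wide.

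H2bu2 and H4c6 were the 2 members whose activated KO arrays all lay below the activated WT arrays, and 0 lay above. Of all rows, 1.5% were separate in the first way and 1.37% in the second. H4c6 was at -0.18 ± 0.21.

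**Figure D3:**
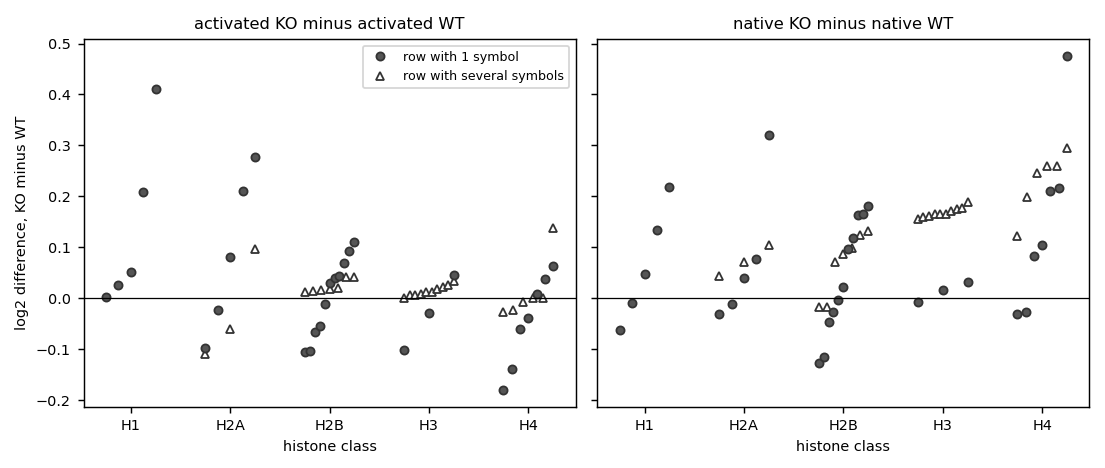
Log2 difference between KO and WT cells (y axis) by histone class for the 57 member rows assigned to a class, in activated cells (left) and native cells (right). The class is that of all or nearly all of a row's histone symbols, since some H2A rows also carry H3c4. Circles are rows with 1 symbol and triangles rows with several, 3 arrays a group. None of the differences was called, and the native H3 and H4 rows with several symbols lie above 0.

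One activated KO array stood apart. Activated KO array 3 held the highest activated value for 39 of 58 histone rows, 25 of the 27 rows with several symbols among them, where 37.1% of all rows had theirs. The S phase genes ran the other way, with a median of 1.34 over native WT on that array against 1.62 and 1.49 on activated KO arrays 1 and 2. The 6 T cell markers were at -0.32, -0.10 and -1.30 on activated KO arrays 1, 2 and 3, and at -0.26, -0.10 and -0.40 on activated WT arrays 1, 2 and 3. The 6 NK cell markers were at 0.03, -0.17 and 0.65 on the activated KO arrays and at -0.25, -0.78 and 0.31 on the activated WT arrays. The part of these differences in the histone values was not tested. Without activated KO array 3 the median genotype difference was -0.10, with 11 rows above 0 and 47 below, and still 0 were called. Without activated WT array 1 it was -0.03. The rise on activation in KO cells kept 52 calls without array 3, with a median of 1.18.

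Whether the rise itself depended on genotype was tested as an interaction, the rise in KO cells minus that in WT cells. Here 0 of 58 rows were called higher and 0 lower in limma, 0 had an unadjusted p under 0.05, as 0.948% of all rows did, and 0% of all rows were called in either direction. The median was -0.11 on the log2 scale, 41 of 58 rows being below 0, beside 0.02 for all rows. Over the 31 rows with 1 symbol the median was -0.03, with 19 below 0, and with rows of 1 symbol set averaged it was -0.04. Without native KO array 3 the median over the 58 rows was 0.003.

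H4c6 came closest, with a rise smaller in KO cells by 0.66 ± 0.30 on the log2 scale (limma unadjusted p = 0.0503, adjusted p = 1), and by 0.36 without native WT array 2. H2ac4 followed at -0.42 ± 0.27. On the other side stood H1f2 at 0.47 ± 0.49 and H2aw at 0.17 ± 0.23, and none of these passed the test. Over the classes, 12 of 13 H4 rows and 12 of 13 H3 rows were below 0, with medians of -0.20 and -0.15, against 1 of 5 H1 rows. Repeated rows of 1 symbol set enter these counts. Among rows with 1 symbol, 7 of 7 H4 rows and 2 of 3 H3 rows were below 0, with medians of -0.12 and -0.06. Of all 35556 rows, 19163 were above 0. The S phase list had a median of -0.13, with 26 of 31 genes below 0, and all 13 proliferation markers were below 0, with a median of -0.29. None of these was called either.

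**Figure D4:**
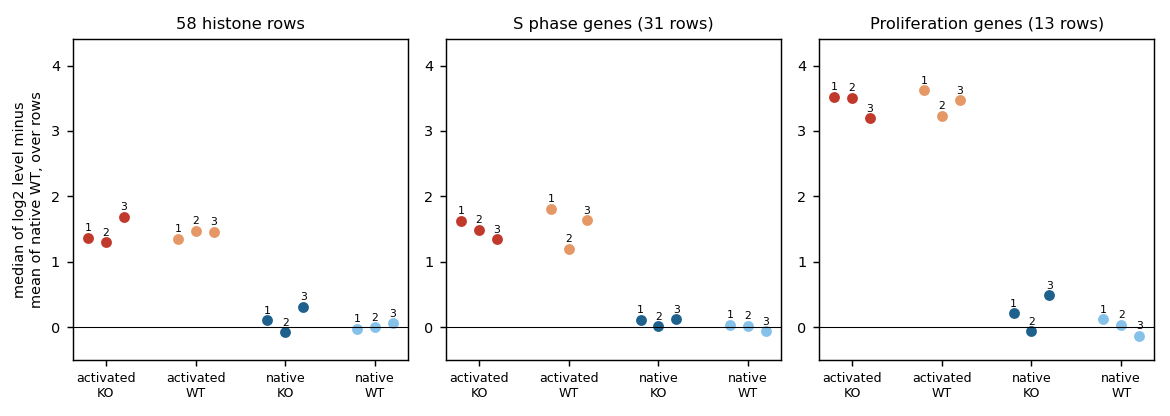
Median over the rows of each list of the log2 level minus the native WT mean (y axis) on each of the 12 arrays, numbered by replicate, for the 58 histone rows, 31 S phase genes and 13 proliferation genes. Histone rows sit at 1.29 to 1.68 on activated KO and 1.35 to 1.47 on activated WT arrays, highest on activated KO array 3, where the other lists are at their lowest of the activated KO arrays.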

How the data were processed

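The authors made the deposited log2 values with RMA in Partek, per the submitters' processing notes; versions and options were not stated there. Arrays have no read depth, and their number limits the precision. RMA compresses differences near background, and a shift common to most transcripts can be removed by alignment of arrays. Group means of all 35556 rows over 12 arrays were fitted with limma 3.58.1 in R 4.3.3 (lmFit, eBayes), without a block or filter, and p-values were adjusted by Benjamini-Hochberg over all rows, called under 0.05. Errors of differences are the fit's SE. A row was at background in a group where its 3 arrays were at or under the 95th percentile of 1135 olfactory receptor rows, and then has only a bound. The fit was tested on simulated data. Per-array values were given for the 3 largest called changes per direction and comparison (2 lowest unadjusted p-values where none was called), the row of highest signal in each class, Hist3h and Hist4h rows and germ-line histones; other class examples were chosen after their values were seen; list genes by the largest called WT differences. Members and lists were chosen with earlier results of these data known. Lists were matched to rows with 1 symbol. Alternatives were a replicate or an experiment block, median centring, quantile normalization, other fits and filters, and leaving out each array. Promoter sequences are RefSeq's.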

Additional observations from a re-analysis of the deposited data

How the results depend on the processing

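With 1 row per gene, the activated against native comparison called 26 of 31 rows higher in KO cells and 26 in WT cells, and the WT median was 1.19; the counts fell because rows with several symbols drop out. With rows of 1 symbol set averaged, an alternative chosen after seeing the data, 34 of 40 were called in each genotype. Under the other alternatives 49 to 53 rows were called higher in KO cells and 51 to 52 in WT cells, and leaving out 1 array gave 50 to 52 in both. No row was called lower on activation, and 0 were called in the genotype comparisons or the interaction, under any alternative. Leaving out 1 array moved the median genotype difference between -0.005 and 0.24 in native cells, crossing 0 without native KO array 3, between -0.10 and 0.08 in activated cells, and the interaction's between -0.21 and 0.003. Array weights turned the activated genotype median to -0.05, the cause not being tested. Median centring, which shifts all rows of an array alike, turned it to -0.02, and moved the median of all rows from -0.001 to -0.03. Neither title numbers nor experiment numbers were taken as pairs in the main fit. Deviations of the KO and WT arrays that share both correlated at -0.02 to 0.31 in native and -0.25 to 0.59 in activated cells. With the replicate block 52 rows were called higher in each genotype and 0 elsewhere. With experiment number as the block, which allows only the genotype comparisons and the interaction, 0 of 58 rows were called. Of the named members' values under alternatives, 1511 kept their call or stayed uncalled. Uncalled values near 0 could change sign among them. With median centring or quantile normalization 2 rows were below 0 on activation in WT cells, against 3 in the main fit. The call was lost by 21 values, those of H3c15 in both genotypes, H2ac1 in both, H3c7 in KO cells and H2bc22 in KO cells. H2bc22, and H2ac1 in KO cells, lost it only with the 2 compared groups fitted alone (adjusted p = 0.0537 and 0.0555). The row of H2aw and Trim17 gained a call in KO cells with median centring (0.38, adjusted p = 0.0405), and 5 uncalled values moved by more than the arrays' spread. Of the list genes' values 826 kept their call or stayed uncalled, 8 lost the call (Lsm10, Snrpb and H2-Ab1 in WT cells) and 6 gained one (H2az1, Snrpb and H2-Ab1 in KO cells). The interaction could not be fitted with only 2 groups.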
